A study of Mus musculus with 4 samples.

Results

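The hemoglobin chain genes described here were Hba-a1, Hba-a2, Hbb-bs, Hbb-bt and Hbb-bh1, 5 of the 17252 genes counted by Drop-seq in spleens of lymphoma-bearing mice. They were taken by name as a list of globin genes, and all 5 were present in the count table. In this droplet method, transcripts are tagged with a barcode for the cell and an identifier for the molecule (UMI), so that a count is a number of captured molecules. Every one of the 3198 deposited barcodes was used, including those outside the limits of 300 and 3000 detected genes that the study set for its cells.

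All BALB/c mice received 10000 cells of the murine B lymphoma BCL1, and spleens were digested with Liberase on day 13. The combination library (anti-CD20 plus anti-CD27) held 800 barcodes, the anti-CD27 library 799, the anti-CD20 library 800 and the isotype control library 799. According to the labels the anti-CD20 dose fell on day 4, with anti-CD27 following from day 5 to day 8, while the single-cell part of the study's methods gives earlier days. The barcodes of the control library carry the name PBS in the table although the label says isotype control. Each treatment was 1 library, so no test between treatments was possible, and how many mice went into each is not stated in the sources used here. No red cell lysis is described for these samples, and with spleen suspensions fewer red cells and less globin RNA per cell cannot be told apart in a library total.

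Adult hemoglobin is assembled from alpha and beta chains, each holding a heme group that binds oxygen. The alpha chain genes form a cluster on mouse chromosome 11 and the beta chain genes a cluster on chromosome 7, where a distant control region drives the embryonic genes first and the adult genes later. The mouse spleen makes red cells, and during maturation erythroid cells fill with globin mRNA while most other transcripts and finally the nucleus are lost.

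In the mm10 build, Hba-a1 spans positions 32283511 to 32284465 and Hba-a2 positions 32296489 to 32297298 of chromosome 11, both on the plus strand. On the minus strand of chromosome 7 lie Hbb-bt (103812524 to 103813996), Hbb-bs (103826534 to 103828096) and Hbb-bh1 (103841637 to 103843164), with the embryonic gene Hbb-y (103851749 to 103853216) beyond them. Each of these genes has 3 exons in the GENCODE annotation. Hba-a1 and Hba-a2 encode adult alpha chains, Hbb-bs and Hbb-bt adult beta chains, and Hbb-bh1 and Hbb-y embryonic beta-like chains.

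The adult pairs are nearly identical in the mm10 reference, which bears on every value that separates them. The only coding base that differs there is shown in capitals below, with positions counted from the A of the start codon. The coding sequences of Hba-a1 and Hba-a2 (429 bases) differ by C381T, and those of Hbb-bs and Hbb-bt (444 bases) by C417T.
Hba-a1: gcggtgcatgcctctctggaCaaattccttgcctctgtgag
Hba-a2: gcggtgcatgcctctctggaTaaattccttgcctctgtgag
Hbb-bs: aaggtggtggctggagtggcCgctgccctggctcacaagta
Hbb-bt: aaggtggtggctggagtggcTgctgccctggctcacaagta
Of the 251 windows of 50 bases in the last 300 bases of each annotated transcript, 201 of Hba-a1 and 185 of Hba-a2 were identical to a stretch of another of the 6 globin genes compared, against 92 of Hbb-bs, 91 of Hbb-bt and 0 of Hbb-bh1. On these reference sequences the split within each adult pair is therefore uncertain, most of all for the alpha pair. Hbb-bh1, in contrast, shared only 74.1% of its coding bases with Hbb-bs. The mm10 genome comes from C57BL/6, which carries Hbb-bs and Hbb-bt, while BALB/c carries the diffuse haplotype with Hbb-b1 and Hbb-b2. The beta rows thus hold BALB/c reads aligned to the C57BL/6 counterparts. No BALB/c alpha or beta sequences were compared, so the differing base and shared windows of each pair hold for the reference only. How BALB/c reads split between the beta rows was not tested.

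The adult genes were high in the same barcodes, so their promoters are shown next, from RefSeq (GRCm38.p6). Each stretch is the 110 bases before the start annotated by RefSeq, a start that lies inside the longer GENCODE span given above for these 3 genes, at chr11:32283562-32283671 (plus strand), chr7:103827929-103828038 (minus strand) and chr7:103813924-103814033 (minus strand). Capitals mark CACCC (known as a site for Klf1-type factors), the CCAAT box and the TATA-like motif ATATAA. All were searched on both strands, and in Hbb-bt adjoining matches of CCAAT on opposite strands run together.
Hba-a1: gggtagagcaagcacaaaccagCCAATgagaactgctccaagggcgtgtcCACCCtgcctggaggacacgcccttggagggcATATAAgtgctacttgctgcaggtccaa
Hbb-bs: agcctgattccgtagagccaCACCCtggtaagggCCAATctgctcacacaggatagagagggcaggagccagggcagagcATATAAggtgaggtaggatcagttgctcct
Hbb-bt: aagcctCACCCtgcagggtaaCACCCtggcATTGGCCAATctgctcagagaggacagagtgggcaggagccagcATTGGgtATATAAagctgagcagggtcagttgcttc
The Hba-a2 stretch matched that of Hba-a1 at 107 of 107 bases once shifted by 3. All 4 adult promoters held the 3 motifs, compared with 75 of 32851 promoter entries of the same length (0.228%). The motifs were not drawn independently of these genes, and the 4 promoters are not independent of each other. The shares are thus a description and no test of enrichment. CACCC was found in 29.6% of all entries, CCAAT in 20.2% and ATATAA in 4.09%. The Hbb-y stretch held CCAAT and neither of the other two motifs.

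Hbb-bs was the most abundant gene of the whole table, with 228345 of 4714537 UMIs, and Hba-a1, Hba-a2 and Hbb-bt ranked 3, 4 and 5. Together the 4 adult genes made up 9.62% of all UMIs. Hbb-bh1 was far rarer, with 1863 UMIs, and ranked 288. A UMI marks the captured end of 1 transcript, so these counts do not scale with transcript length. Library totals were 1565816 UMIs in the combination, 1251463 in anti-CD27, 1259573 in anti-CD20 and 637685 in the isotype control. All intervals below are 95% intervals and cover counting error only, not the spread between mice. Those of CPM, UMI shares and UMI ratios take each UMI as independent. They leave out the error from which barcodes were captured, although 50% of adult globin UMIs lay in 21 to 36 barcodes of each library. Whether such intervals overlap is therefore a statement about UMI counts alone.

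Adult globin took 6.75% of UMIs in the combination library (interval 6.71 to 6.79), 6.84% in anti-CD27 (6.80 to 6.89), 15.06% in anti-CD20 (14.99 to 15.13) and 11.4% in the isotype control (11.3 to 11.5). The 2 libraries given anti-CD27 were thus both below the 2 libraries without it. Normalized counts are given as UMIs per 1000000 UMIs of the library (CPM).

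Hbb-bs, the leading beta chain gene, had 34242 CPM in the combination library, 35204 in anti-CD27, 74171 in anti-CD20 and 58413 in the isotype control. Hba-a1 had 14192 CPM in the combination library, 14247 in anti-CD27, 33090 in anti-CD20 and 24424 in the isotype control. Hba-a2 had 10928 CPM in the combination library, 10970 in anti-CD27, 27109 in anti-CD20 and 19734 in the isotype control. For these 3 genes the combination and anti-CD27 libraries were close together and the anti-CD20 library was highest.

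Hbb-bt had 8140 CPM in the combination library, 8015 in anti-CD27, 16235 in anti-CD20 and 11333 in the isotype control. Hbb-bh1 had 199.9 CPM in the combination library (interval 178 to 223), 259 in anti-CD27 (231 to 289), 656 in anti-CD20 (612 to 702) and 627 in the isotype control (567 to 692). For Hbb-bh1 the intervals of anti-CD20 and the isotype control overlapped, and those of the combination and anti-CD27 did not.

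**Figure D1:**
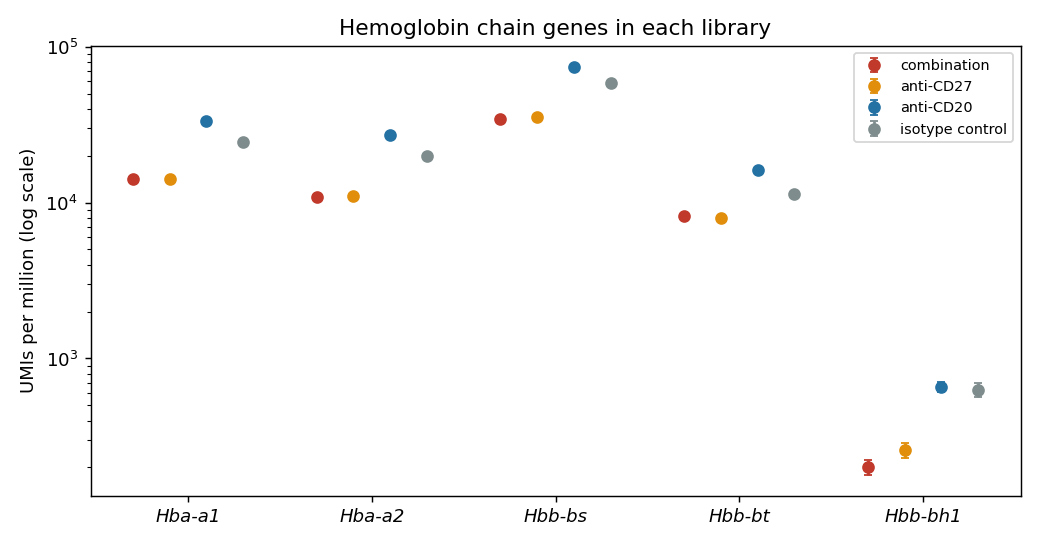
CPM (UMIs per 1000000, log scale) of the 5 hemoglobin chain genes in each library, with exact Poisson 95% intervals that cover counting error only. The anti-CD20 library is highest for each of the 5 genes, and Hbb-bh1 lies below the others in every library.

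In the combination against anti-CD20, which asks what anti-CD27 added to anti-CD20, adult globin was lower, with a log2 ratio of -1.16 (interval -1.17 to -1.15). By gene the log2 ratio was -1.71 for Hbb-bh1, -1.31 for Hba-a2, -1.22 for Hba-a1, -1.12 for Hbb-bs and -0.996 for Hbb-bt. Of the 5 genes, 4 were at least 2-fold lower, against 5.94% of the 8534 genes with at least 30 UMIs in the 2 libraries together, and Hbb-bt lay just short of this fold. The median log2 ratio over those genes was 0.15. Among barcodes with 300 to 3000 detected genes the adult globin log2 ratio of summed UMIs was only -0.0083 (interval -0.04 to 0.02). Within these limits of the study the lower level was thus not seen in the sum. The median barcode share there was still lower, at 0.138% in the combination and 0.410% in anti-CD20.

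In anti-CD27 against the isotype control, adult globin had a log2 ratio of -0.74 (interval -0.75 to -0.72). The log2 ratio was -1.28 for Hbb-bh1, -0.85 for Hba-a2, -0.78 for Hba-a1, -0.73 for Hbb-bs and -0.50 for Hbb-bt. Only Hbb-bh1 was at least 2-fold lower, that is 1 of 5 genes, against 4.58% of 7462 genes. Among barcodes with 300 to 3000 detected genes the direction of the summed ratio turned round, with a log2 ratio of 0.82 (interval 0.78 to 0.87). The isotype control sum there was 5178 UMIs, of which 1 barcode held 2176 and another 1589. The median barcode share there did not turn round, at 0.139% in anti-CD27 and 0.211% in the isotype control.

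In anti-CD20 against the isotype control, adult globin had a log2 ratio of 0.40 (interval 0.39 to 0.42). None of the 5 genes was at least 2-fold higher, a fold reached by 2.65% of 7255 genes, and the log2 ratio of Hbb-bh1 was 0.06 (interval -0.11 to 0.24). Without barcodes that end in an uncalled base the adult globin log2 ratio was 0.22. In the combination against anti-CD27, adult globin had a log2 ratio of -0.02 (interval -0.03 to -0.01), and its sign changed under 3 of the other settings tried. None of the 5 genes was at least 2-fold lower there, against 3.49% of 8535 genes, and Hbb-bh1 had a log2 ratio of -0.37 (interval -0.60 to -0.14). In the combination against the isotype control, adult globin had a log2 ratio of -0.75 (interval -0.77 to -0.74), and only Hbb-bh1 was at least 2-fold lower, that is 1 of 5 genes, against 9.17% of 7929 genes. The comparisons share libraries and are not independent of each other.

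The share of the library made of globin came from few barcodes. The barcodes richest in globin held 50% of the adult globin UMIs in as few as 24 barcodes of the combination library, 21 of anti-CD27, 36 of anti-CD20 and 23 of the isotype control. Adult globin made up over 50% of the UMIs in 358 of all barcodes, between 10% and 50% in 47, and under 2% in 2721. The barcodes over 50% held 91.1% of all adult globin UMIs.

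These globin-dominated barcodes numbered 75 in the combination library (9.38%, interval 7.45 to 11.6), 68 in anti-CD27 (8.51%, 6.67 to 10.7), 127 in anti-CD20 (15.9%, 13.41 to 18.6) and 88 in the isotype control (11.01%, 8.93 to 13.39). Their median number of detected genes was 75 and their median depth 1075 UMIs, and 347 of the 358 had under 300 detected genes. The anti-CD20 library stood above the others in this share. Its interval overlapped none of theirs, though it only just missed that of the isotype control. Intervals of barcode shares, here and below, take each barcode as independent. Yet both barcodes were globin-dominated in 26 pairs of barcodes 1 base apart in anti-CD20 and 21 in the isotype control. So small a gap between intervals is therefore not read as a difference.

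**Figure D2:**
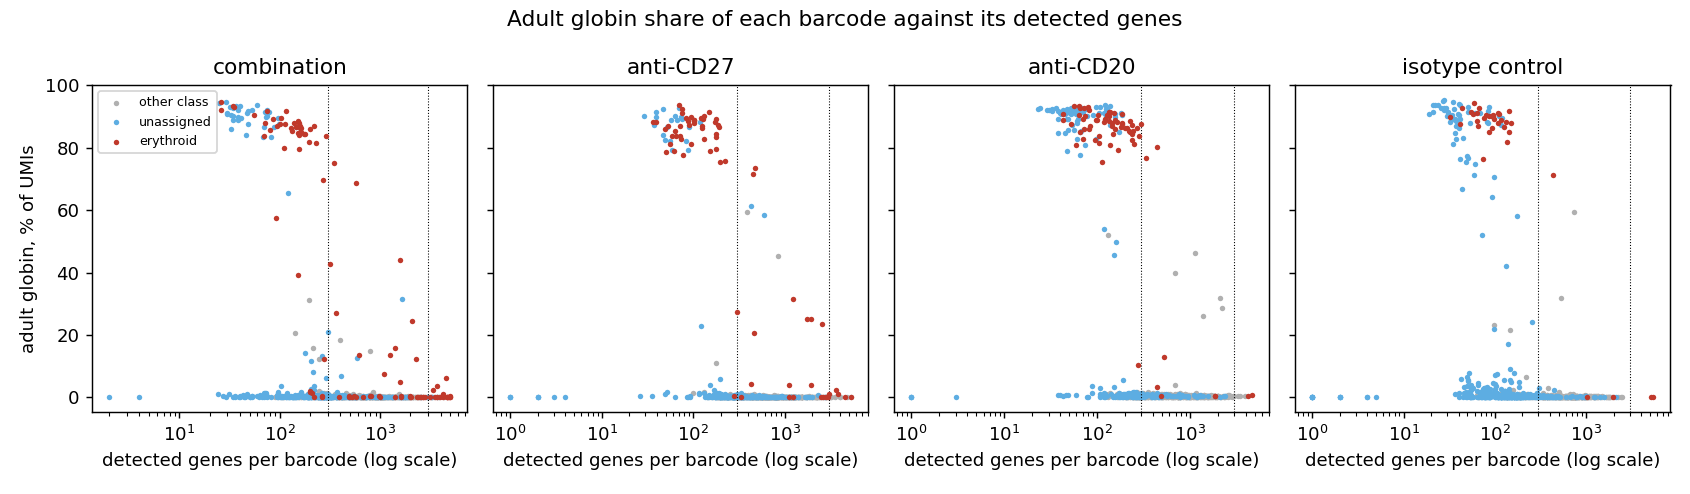
Adult globin as a percent of the UMIs of each barcode against its number of detected genes (log scale), with dotted lines at 300 and 3000 genes. Points are barcodes colored by marker-defined class. In all 4 libraries the barcodes fall into a group above about 50%, mostly under 300 genes, and a large group near 0.

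By detected genes, barcodes under 100 genes were 63.3% adult globin in the combination library, 81.6% in anti-CD27, 84.0% in anti-CD20 and 73.1% in the isotype control. Barcodes with at least 100 and under 300 genes were 38.2% adult globin in the combination library, 34.2% in anti-CD27, 63.3% in anti-CD20 and 25.1% in the isotype control. In barcodes with 300 to 3000 genes the share was 1.85% in the combination library, 2.08% in anti-CD27, 1.86% in anti-CD20 and 1.17% in the isotype control. Barcodes over 3000 genes were under 1% adult globin in every library. Barcodes under 300 genes, which the study left out, held 81.5% of the adult globin UMIs of the combination library, 77.1% of anti-CD27, 90.6% of anti-CD20 and 92.7% of the isotype control.

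Barcodes were then placed in cell classes by marker genes that include no globin: a barcode took the class with the most marker UMIs when it had at least 3 UMIs of at least 2 of its marker genes and at least 2 times the UMIs of the next class. The class called erythroid-like (erythroid barcodes below) rested on 18 of 20 listed markers, among them Alas2, which starts heme synthesis in red cells, and Slc4a1, the anion exchanger of the red cell membrane. It held 99 barcodes of the combination library (12.4%, interval 10.2 to 14.9), 67 of anti-CD27 (8.39%, 6.56 to 10.5), 68 of anti-CD20 (8.50%, 6.66 to 10.7) and 35 of the isotype control (4.38%, 3.07 to 6.04). The order of this class therefore differed from that of globin: the combination library had the most erythroid barcodes and one of the lowest globin levels.

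Of the 269 erythroid barcodes, 60 had only 3 or 4 marker UMIs. A further 179 barcodes over 50% globin stayed unassigned, of which 35 had no UMI of any erythroid marker, 78 had 1 or 2, and 66 had at least 3 UMIs of 1 marker gene. Where 1 marker gene was enough, the erythroid share was 14.1% in the combination library, 9.39% in anti-CD27, 11.9% in anti-CD20 and 6.01% in the isotype control. No doublet caller was run, and barcodes of other classes that held at least 100 adult globin UMIs numbered 13 of 1731.

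Among erythroid barcodes, adult globin took 15.3% of UMIs in the combination library, 31.6% in anti-CD27, 64.4% in anti-CD20 and 39.2% in the isotype control. The median over erythroid barcodes was 12.3% in the combination library, 82.8% in anti-CD27, 86.8% in anti-CD20 and 88.7% in the isotype control. In the combination library the median fell between a group of 49 of 99 erythroid barcodes under 10% globin and a group of 40 over 50%. Over 50% globin were 45 of 67 erythroid barcodes in anti-CD27, 60 of 68 in anti-CD20 and 31 of 35 in the isotype control.

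The summed log2 ratio in erythroid barcodes was -2.07 in the combination against anti-CD20 (interval -2.09 to -2.06), and all 5 genes were at least 2-fold lower, against 1.29% of 3176 genes. In the same barcodes 75.2% of genes were at least 2-fold higher, with a median log2 ratio of 1.50 over all of them. In anti-CD27 against the isotype control the erythroid log2 ratio was -0.31 (interval -0.33 to -0.29) and 0 of 5 genes were at least 2-fold lower, against 2.74% of 1459 genes.

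The libraries differed in how many genes their erythroid barcodes held. Under 300 genes were 46 of 99 erythroid barcodes in the combination library, 44 of 67 in anti-CD27, 59 of 68 in anti-CD20 and 30 of 35 in the isotype control. At least 1000 genes were found in 37 erythroid barcodes of the combination library, 17 of anti-CD27, 4 of anti-CD20 and 4 of the isotype control. Within erythroid barcodes under 300 genes the globin share was nearly alike, at 81.0% in the combination library, 86.2% in anti-CD27, 87.1% in anti-CD20 and 89.2% in the isotype control. There the log2 ratio was -0.10 (interval -0.12 to -0.09) in the combination against anti-CD20 and -0.050 (interval -0.07 to -0.03) in anti-CD27 against the isotype control, and 0 of 5 genes were at least 2-fold lower in either, against 1.83% of 109 genes and 0% of 57 genes.

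Hbb-bh1 differed more than the adult genes in these low-gene erythroid barcodes. Its log2 ratio was -0.70 (interval -0.95 to -0.45) in the combination against anti-CD20 and -0.56 (interval -0.84 to -0.27) in anti-CD27 against the isotype control. Hbb-bt went the other way by a little, with log2 ratios of 0.11 (interval 0.07 to 0.16) and 0.17 (interval 0.11 to 0.23). In the same barcodes Alas2 had log2 ratios of 0.15 (interval -0.07 to 0.38) and 0.00 (interval -0.31 to 0.33).

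**Figure D3:**
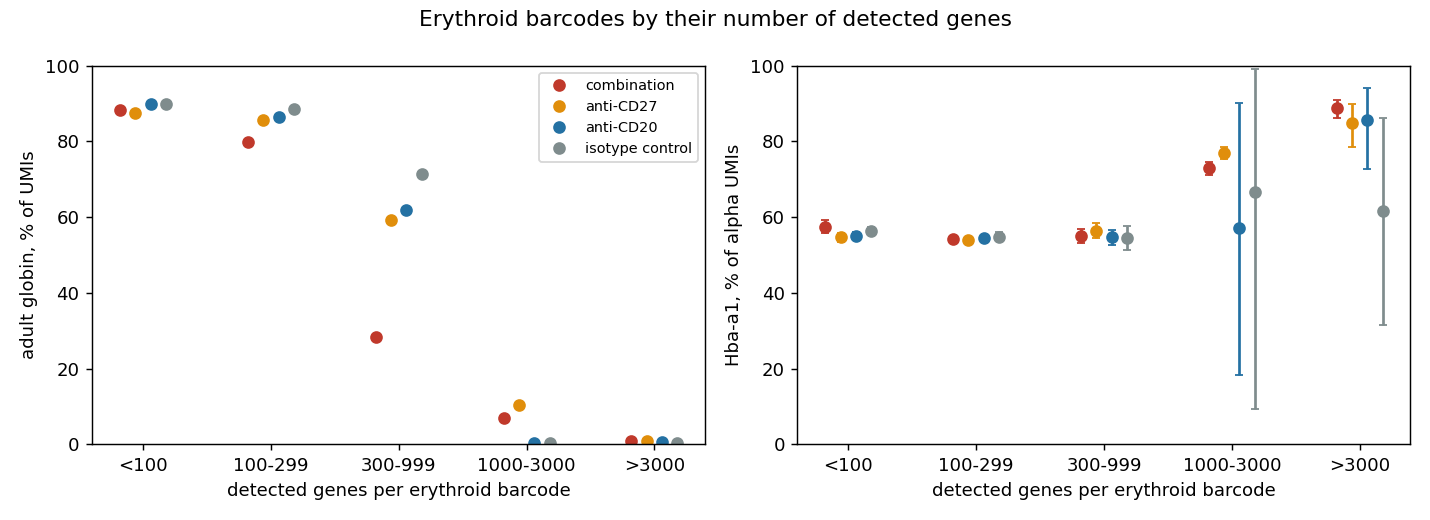
Left, adult globin as a percent of the UMIs of erythroid barcodes, summed by library and number of detected genes; right, Hba-a1 as a percent of the alpha chain UMIs, with exact binomial 95% intervals for counting error. The globin share is near 80% to 90% under 300 genes in all 4 libraries and under 1% over 3000 genes, where Hba-a1 makes up more of the alpha chain UMIs in the combination, anti-CD27 and anti-CD20 libraries.

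Of the listed late stage genes with at least 30 UMIs in erythroid barcodes, 3 were higher under 300 genes and 1 at 1000 genes or more. The latter was Tspo2, with 24.2 CPM under 300 genes and 126 CPM at 1000 genes or more. All 3 early stage genes with as many UMIs were higher at 1000 genes or more. Alas2 and Klf1, given next, belong to the lists of heme synthesis and regulators. Erythroid barcodes under 300 genes had 3575 CPM of Alas2 and 1560 CPM of Bpgm (the enzyme that makes the hemoglobin ligand bisphosphoglycerate), against 115 CPM of Alas2 and 20.7 CPM of Bpgm in those with at least 1000 genes. Klf1, an erythroid transcription factor that acts at the beta globin promoter, had 34.5 CPM under 300 genes and 601 CPM at 1000 genes or more. Car1, a carbonic anhydrase, had 31.1 CPM under 300 genes and 1842 CPM at 1000 genes or more, and Myb, a factor of dividing progenitors, 3.45 and 274 CPM. Globin UMIs are part of the total in each of these CPM values. Alas2, Klf1, Car1 and Tspo2 are also among the markers that define the erythroid class, so their contrast follows in part from the selection. Bpgm and Myb are not among those markers.

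Erythroid barcodes rich in other genes carried little globin. Over 3000 genes their median adult globin share was 0.151% in the combination library (17 barcodes), 1.05% in anti-CD27 (5), 0.598% in anti-CD20 (2) and 0.195% in the isotype control (2). The median of B-like and T-like barcodes was 0.133% in the combination library, 0.131% in anti-CD27, 0.394% in anti-CD20 and 0.208% in the isotype control, so that the erythroid barcodes lay above it in the first 3 of these libraries, by little in the combination. Of the 62 erythroid barcodes with at least 1000 genes, 17 were over 2% globin, and these held 92.2% of the group's adult globin UMIs. All 17 were from the combination (10) or anti-CD27 (7) library.

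The composition of the alpha pair differed with the number of detected genes. In erythroid barcodes under 300 genes, Hba-a1 was 1.21 times Hba-a2 in the combination library, 1.18 in anti-CD27, 1.20 in anti-CD20 and 1.25 in the isotype control. At 1000 genes or more the ratio was 3.17 in the combination library, 3.44 in anti-CD27 and 4.60 in anti-CD20, the last on 240 adult globin UMIs in 4 barcodes, and 1.67 in the isotype control on 108 UMIs in 4 barcodes. Per barcode with at least 10 alpha UMIs, Hba-a1 made up a median of 54.8% of alpha UMIs (quartiles 53.1 and 56.3, 172 barcodes) under 300 genes, 69.0% (quartiles 54.6 and 88.3, 15 barcodes) from 300 to under 1000 genes, and 83.2% (quartiles 72.4 and 88.5, 23 barcodes) at 1000 genes or more. The 23 barcodes came from the combination (11), anti-CD27 (11) and anti-CD20 (1) libraries, with library medians of 83.6%, 80.4% and 88.6%. Hba-a1 and Hba-a2 differ little in the reference sequence, and the part that read assignment plays in this split was not tested.

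The chain genes also differed in their mix by library. Alpha to beta UMI ratios were 0.593 in the combination library (interval 0.585 to 0.600), 0.583 in anti-CD27 (0.575 to 0.592), 0.666 in anti-CD20 (0.660 to 0.672) and 0.633 in the isotype control (0.624 to 0.643). Hbb-bs was 4.21 times Hbb-bt in the combination library, 4.39 in anti-CD27, 4.57 in anti-CD20 and 5.15 in the isotype control. Hba-a1 was 1.30 times Hba-a2 in the combination and anti-CD27 libraries, 1.22 in anti-CD20 and 1.24 in the isotype control. With barcodes of 300 to 3000 genes alone, the alpha to beta ratio of anti-CD20 (0.587) was no longer the highest.

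The mix also differed with the globin content of the barcode. In barcodes with 1 to 10 adult globin UMIs, Hbb-bs made up 64.7% of them in the combination library, 69.4% in anti-CD27, 73.6% in anti-CD20 and 67.9% in the isotype control. In barcodes over 2000 adult globin UMIs it made up 47.5% in the combination library, 47.1% in anti-CD27, 46.9% in anti-CD20 and 47.4% in the isotype control. The intervals of the low and high ends did not overlap in any library. The alpha shares went the other way, since over all libraries Hba-a1 made up 22.3% above 2000 UMIs and 11.2% at 1 to 10 UMIs, and Hba-a2 made up 18.3% and 9.05%. Hbb-bt was 13.7% of adult globin UMIs above 2000 UMIs in the combination library, 13.4% in anti-CD27, 11.7% in anti-CD20 and 9.57% in the isotype control.

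**Figure D4:**
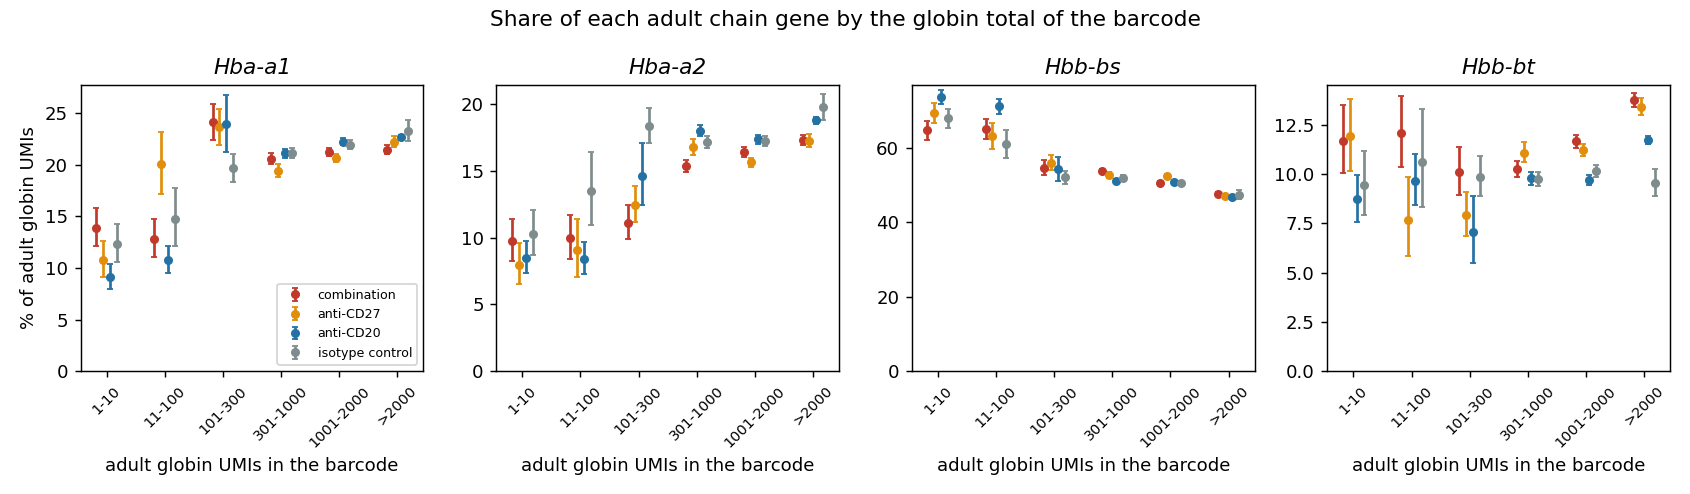
Percent of adult globin UMIs from each of the 4 adult genes, by the adult globin UMIs of the barcode, with exact binomial 95% intervals for counting error. The Hbb-bs share lies between 64.7% and 73.6% at 1 to 10 UMIs and between 46.9% and 47.5% above 2000 UMIs, while the alpha shares are higher in globin-rich barcodes.

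In cells that do not make hemoglobin the adult genes were still seen at a low level. The medians of B-like and T-like barcodes, given above, lay between 0.131% in anti-CD27 and 0.394% in anti-CD20. Anti-CD20, the library with the highest globin share of its total, was also highest here. Hbb-bs had at least 1 UMI in 69.5% of B-like and T-like barcodes of the combination library, 65.0% of anti-CD27, 90.5% of anti-CD20 and 74.5% of the isotype control, at median depths of 1062, 943, 1295 and 923 UMIs. With each barcode thinned to 300 UMIs, those shares were 30.2%, 28.2%, 60.4% and 41.7% in the same order of libraries, after 14, 29, 20 and 40 shallower barcodes were left out. A UMI of Hbb-bs in a barcode was thus no sign of an erythroid cell, since lymphocytes should lack it.

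B-like and T-like barcodes with under 100 adult globin UMIs held 5137 such UMIs over 1241 barcodes, of which 71.6% were Hbb-bs, 10.1% Hba-a1, 9.77% Hbb-bt and 8.49% Hba-a2. In the globin-dominated barcodes the shares were 49.9% Hbb-bs, 21.3% Hba-a1, 11.2% Hbb-bt and 17.6% Hba-a2. The combination library held only 4 B-like barcodes, so its values here rest mostly on T-like ones. The low-level globin of lymphocytes did not have the mix of the globin-dominated barcodes. What set this mix was not tested.

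**Figure D5:**
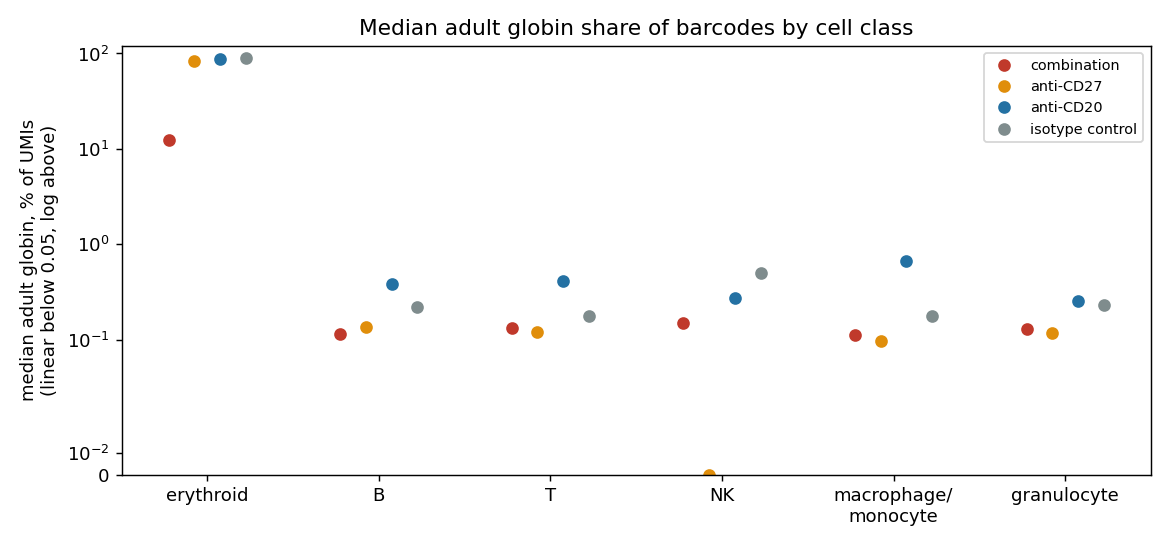
Median adult globin as a percent of UMIs over the barcodes of each marker-defined class and library (axis linear below 0.05 and logarithmic above). Erythroid barcodes lie at 12.3% in the combination library and above 80% in the others, and the other classes at or below 0.670% in every library.

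Hbb-bh1 lay mostly in globin-dominated barcodes, as the adult genes did. Of its 1863 UMIs, 1753 (94.1%) lay in globin-dominated barcodes, and 326 of the 358 such barcodes had at least 1. By library this share was 87.2% in the combination, 89.2% in anti-CD27, 96.4% in anti-CD20 and 98.8% in the isotype control, against 91.0%, 92.6%, 94.5% and 97.7% for Hba-a2 in the same order. B-like and T-like barcodes held 29 of its UMIs, in 8 of 1246 barcodes. No single barcode dominated it, since the highest count was 31 UMIs.

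Relative to the adult genes, Hbb-bh1 stood at 2.96 UMIs per 1000 adult globin UMIs in the combination library (interval 2.64 to 3.31), 3.78 in anti-CD27 (3.38 to 4.22), 4.35 in anti-CD20 (4.06 to 4.66) and 5.51 in the isotype control (4.98 to 6.07). Only the intervals of anti-CD27 and anti-CD20 overlapped. The same order was found in globin-dominated barcodes alone, with 2.99, 3.84, 4.50 and 5.63 UMIs per 1000. In erythroid barcodes Hbb-bh1 was detected in 47.5% of the combination library, 73.1% of anti-CD27, 89.7% of anti-CD20 and 88.6% of the isotype control, and after thinning to 300 UMIs in 23.5%, 44.7%, 61.1% and 68.9%.

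Of the other globin genes listed, Hbb-y, an embryonic beta-like gene, had 149 UMIs in the combination library (95.2 CPM), 177 in anti-CD27 (141 CPM), 426 in anti-CD20 (338 CPM) and 196 in the isotype control (307 CPM). It lay in the same kind of barcode as Hbb-bh1, with 92.4% of its UMIs in globin-dominated barcodes. Over all libraries Hbb-bh2 had 55 UMIs, the embryonic alpha-like gene Hba-x 21, Hbq1b 70, Hbq1a 10 and Cygb 1.

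Over all barcodes the membrane, heme synthesis, iron uptake and regulator lists differed from globin in direction in the combination against anti-CD20. In the combination against anti-CD20, 9 of 9 measured membrane genes were at least 2-fold higher, 6 of 12 genes of heme synthesis, 3 of 4 of iron uptake and 6 of 11 regulators, and none of them was 2-fold lower. Of all genes tested, 11.8% were at least 2-fold higher. The median log2 ratio was 2.11 for the membrane list, 1.98 for iron uptake, 1.33 for regulators and 1.12 for heme synthesis, beside 0.15 over all genes. In erythroid barcodes alone 4 of 9 membrane genes, 8 of 12 of heme synthesis, 3 of 4 of iron uptake and 7 of 10 regulators were higher. There 75.2% of all genes were higher, and 1 heme synthesis gene was lower. In erythroid barcodes under 300 genes 0 of 3 membrane and 0 of 3 heme synthesis genes were higher, against 22% of 109 genes.

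Within these lists, Klf1 had 168 CPM in the combination library and 33.3 CPM in anti-CD20, a log2 ratio of 2.33 (interval 1.86 to 2.84). Slc4a1 had 137 CPM in the combination library and 61.1 CPM in anti-CD20, a log2 ratio of 1.17 (0.79 to 1.56), and Tfrc, the transferrin receptor, had 171 and 49.2 CPM in the same 2 libraries. Alad, an enzyme early in heme synthesis, had a log2 ratio of 2.20 (1.73 to 2.70). Alas2 went with globin instead, with 312 CPM in the combination library and 545 CPM in anti-CD20, a log2 ratio of -0.81 (-0.98 to -0.64). Bpgm also did, with a log2 ratio of -1.22 (-1.48 to -0.96).

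In anti-CD27 against the isotype control the counts were smaller. Median log2 ratios were 1.41 for the membrane list, 0.83 for iron uptake, 0.56 for heme synthesis and 0.0074 for regulators, beside -0.0075 over all genes. At least 2-fold higher were 5 of 7 measured membrane genes, 2 of 12 genes of heme synthesis, 1 of 3 of iron uptake and 2 of 11 regulators, against 7.53% of all genes tested, and 0 of these genes were 2-fold lower. Slc4a1 had 127 CPM in anti-CD27 and 45.5 CPM in the isotype control, a log2 ratio of 1.48 (interval 0.90 to 2.11). Alas2 had 263 CPM in anti-CD27 and 416 CPM in the isotype control, a log2 ratio of -0.66 (interval -0.90 to -0.42).

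The remaining lists were short, and are read beside the shares of all genes tested at least 2-fold higher (11.8% in the combination against anti-CD20 and 7.53% in anti-CD27 against the isotype control) or lower (5.94% and 4.58%). Of the chaperone and redox genes, which keep globin chains and heme soluble and reduced, 2 of 5 were at least 2-fold higher in the combination against anti-CD20 and 1 of 5 in anti-CD27 against the isotype control. Of the early stage genes 3 of 4 and 1 of 3 were higher in these comparisons. The late stage counts were 1 of 4 and 0 of 4, with 1 late stage gene lower in the combination. Median log2 ratios in the first comparison were 0.89 for chaperone and redox, 1.41 for early stage and -0.48 for late stage. In the second comparison they were -0.20, -0.16 and -0.0068 in the same order. Of the other globin genes, 2 of 3 were at least 2-fold lower in the combination against anti-CD20 and 1 of 1 in anti-CD27 against the isotype control.

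Genes that clear free hemoglobin and heme were listed as well, with 1 of 4 measured genes at least 2-fold higher in the combination against anti-CD20, and 1 higher and 1 lower of 4 in anti-CD27 against the isotype control, beside the same shares of all genes. Hp, which encodes the hemoglobin-binding protein haptoglobin, had 236 CPM in the combination library and 44.5 CPM in anti-CD20. It had 308 CPM in anti-CD27 and 78.4 CPM in the isotype control, with 0.580% of its UMIs in erythroid barcodes. The libraries also differed in other classes, with granulocyte-like barcodes at 12% in the combination, 8.64% in anti-CD27, 2.5% in anti-CD20 and 2.88% in the isotype control. What such differences contribute to the Hp values was not tested. Hmox1, the heme-degrading enzyme, had 53.0 CPM in the combination library and 70.7 CPM in anti-CD20, with a log2 ratio of -0.41 (interval -0.86 to 0.03), and 30.4 CPM in anti-CD27 and 78.4 CPM in the isotype control, with a log2 ratio of -1.37 (-2.02 to -0.73). Slc40a1, the iron exporter, had log2 ratios of 0.22 (-0.19 to 0.64) and 0.03 (-0.56 to 0.64) in the same comparisons.

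Among the 10 genes most like adult globin over the 1821 barcodes with at least 300 genes, by Pearson's r of log2 of 1 plus UMIs per 10000 UMIs of the barcode, were Hbb-bh1 (0.46), Hbb-y (0.41), Alas2 (0.38), Trim10 (0.37), Slc4a1 (0.37), Apol11b (0.37) and Sytl5 (0.35). These values describe 10078 genes over barcodes that share libraries and differ in depth. Within libraries the r of Alas2 was 0.42 in the combination, 0.51 in anti-CD27, 0.37 in anti-CD20 and 0.26 in the isotype control, whereas that of Apol11b was 0.51, 0.51, 0.28 and 0.012 in the same order.

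Some barcodes were nearly alike in sequence, and whether such pairs came from 1 bead was not tested. Pairs of barcodes 1 base apart within a library numbered 173 in the combination, 172 in anti-CD27, 163 in anti-CD20 and 129 in the isotype control, and 594 of all 637 pairs differed at the last base. Both barcodes were globin-dominated in 80 pairs and only 1 of them in 4 pairs. With the shallower of each such pair left out, globin-dominated barcodes numbered 68 in the combination library, 54 in anti-CD27, 111 in anti-CD20 and 76 in the isotype control. Barcodes ending in an uncalled base held 14.5%, 13.7%, 15.9% and 10.3% of adult globin UMIs in the same order, and 2 to 8 barcode sequences of each library also occurred in another.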

How the data were processed

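The labels name 4 spleen samples and 1 treatment for each. Per the labels and the methods, the authors used bcl2fastq for demultiplexing and STAR 2.5.0a as aligner, with mm10 as the genome, and then collapsed reads to UMI counts for every gene in every barcode. The authors deposited these raw counts, whole numbers of at most 2416, for 17252 genes and 3198 barcodes. The methods say that 800 bead-bound transcriptomes per condition went into amplification. The study's limits of 300 and 3000 genes had not been applied to the deposited barcodes. How reads that fit several globin genes were counted is not given in the sources used here.

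UMIs were summed per library or class and given as CPM. Ratios have exact conditional intervals, shares exact Clopper-Pearson intervals and CPM exact Poisson intervals, all at 95%. Ratios and intervals were tested on data simulated as independent counts per gene and library. The simulated data held no barcodes, so they cannot show how the intervals behave when UMIs cluster in few barcodes. Depth was 637685 to 1565816 UMIs per library, and 1 library per treatment allowed no test. Named genes were the listed red cell genes with the 10 genes most correlated with adult globin. Some of these genes are not reported here. The members and lists were chosen with earlier results of these data known. Alternatives were a limit of 300 to 3000 genes, TMM factors (edgeR 4.0.16), DESeq2 1.42.0 size factors, totals without globin, means over barcodes, other class limits and barcode filters. Python 3.11.15, scipy 1.17.1 and R 4.3.3 were used, with gene models from GENCODE and promoters from RefSeq.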

Additional observations from a re-analysis of the deposited data

Results flagged for a closer look

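The combination was set against anti-CD27, and anti-CD20 against the isotype control, 2 comparisons that differ in whether anti-CD27 was given. Adult globin had a log2 ratio of -0.02 in the combination over anti-CD27 and 0.40 in anti-CD20 over the isotype control, a difference of -0.42. In erythroid barcodes the ratios were -1.05 and 0.72, a difference of -1.77, but in erythroid barcodes under 300 genes they were -0.089 and -0.034, alike in sign. By gene the difference in all barcodes was -0.44 for Hba-a1, -0.46 for Hba-a2, -0.38 for Hbb-bs and -0.44 for Hbb-bh1. The 2 ratios of each of these genes had opposite signs. The counting interval held both signs for Hba-a1 (-0.034 to 0.023) and Hba-a2 (-0.038 to 0.027) in the combination over anti-CD27. So did that of Hbb-bh1 (-0.11 to 0.24) in anti-CD20 over the isotype control. Hbb-bt was positive in both comparisons, at 0.022 (interval -0.016 to 0.06) and 0.52. With 1 library per treatment these differences were not tested. In all barcodes the sign of the first ratio changed with the setting.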

How the results depend on the processing

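Values are log2 ratios of adult globin unless another quantity is named. Within 300 to 3000 genes, the summed ratio of anti-CD27 over the isotype control reversed to 0.82. The combination over anti-CD20 gave -0.0083, anti-CD20 over the isotype control 0.66 and the combination over anti-CD27 -0.16. Median barcode shares there were 0.138% in the combination, 0.139% in anti-CD27, 0.410% in anti-CD20 and 0.211% in the isotype control. The combination over anti-CD27 also reversed with means over barcodes (0.23), without barcodes ending in an uncalled base (0.10) and without the shallower of barcodes 1 base apart (0.022). For the combination over anti-CD20, filtered TMM gave -1.32, TMM over all genes -1.26, DESeq2 factors -1.28, totals without globin -1.29, means over barcodes -0.71 and no uncalled last base -0.95. For anti-CD27 over the isotype control the same settings gave -0.72, -0.70, -0.70, -0.81, -0.41 and -0.83, and leaving out the shallower of close barcodes -0.75. For anti-CD20 over the isotype control they gave 0.54, 0.55, 0.55, 0.46, 0.52 and 0.22, and then 0.42. Filtered TMM gave -0.059 for the combination over anti-CD27.

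In erythroid barcodes the combination over anti-CD20 was -2.04 with 2 marker UMIs, -2.13 with 5, -2.01 with 1 marker gene, -1.70 within 300 to 3000 genes, -0.10 under 300 genes, -1.05 as a mean and -3.34 with totals without globin. Anti-CD27 over the isotype control was -0.17 with 5 marker UMIs, -0.46 with 1 marker gene, -0.59 within 300 to 3000 genes, -0.050 under 300 genes, -0.39 as a mean, -0.48 with totals without globin and -0.34 without the shallower of close barcodes.

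The erythroid share within 300 to 3000 genes was 8.33% in the combination, 3.62% in anti-CD27, 1.40% in anti-CD20 and 0.882% in the isotype control. With 5 marker UMIs it was 6.26% in anti-CD27, 6.38% in anti-CD20 and 2.75% in the isotype control, and with 1 marker gene 11.9% in anti-CD20. The alpha to beta ratio within 300 to 3000 genes was 0.633, 0.609, 0.587 and 0.614 in the same order of libraries, and in erythroid barcodes 0.603 in the combination, 0.599 in anti-CD27 and 0.691 in anti-CD20. The cause of these changes was not tested. The other 19 values stayed within their counting intervals. The settings with 1 marker gene, erythroid barcodes under 300 genes, no uncalled last base and, for the erythroid share only, close barcodes were chosen after seeing the data. No paired analysis was possible because each treatment had 1 library. Depth limits the rarer Hbb-bh1, and with no replicate library the spread between mice is unknown.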
